A study of Rattus norvegicus with 10 samples.

Results

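Collagen genes encode the chains of a family of triple-helical proteins. They were taken here as every gene with a non-control probe and a symbol of the form Col, number, a, number (such as Col1a1), through the RefSeq accession that the array files give for a probe. The rule found 18 genes with 25 probes among 15168 named genes, and 44 genes of this form stand in the RefSeq gene table. Of 30367 probes, 12362 had no symbol by this route, and a collagen gene read only by such probes would be missed here. All 18 passed the filter on dim probes, which 14711 named genes passed. Where a gene had several probes (6 of the 18 genes), the brightest stood for it and the others served as a check. RNA came from the submandibular gland, one of the large salivary glands, of males 14 weeks old. The 5 spontaneously hypertensive rats (SHR), whose blood pressure rises without treatment, were compared with 5 Wistar Kyoto rats (WKY), the control strain with normal blood pressure, matched for age and weight. No treatment is named for either strain, and total RNA of each rat was read on 1 one-colour Agilent array. An array's name joins the strain with the numbers in its title, as in SHR 3-3; what these numbers stand for is not stated.

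A collagen molecule is a rope of 3 chains, which may be the products of 1 gene or of several. Fibrillar collagens such as types I, III and V build the fibres of connective tissue, type IV forms the sheet-like network of basement membranes under epithelium and around vessels, and type VI forms beaded filaments between them. The remaining families coat fibrils, anchor the epithelium or cross the cell membrane. In a salivary gland fibroblasts make most of the fibrillar collagen of the septa between lobules, and basement membranes surround acini, ducts and vessels.

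The stretches upstream of 3 genes are shown because the results turn on these genes. Col11a2 was the member that read higher in SHR, in its brightest probe only. Col1a2 and Col4a1 are among the members that 1 SHR array set apart, Col4a1 in its brightest probe only. For Col11a2 and Col1a2 the 250 bases before the gene's annotated start are given. Whether transcription begins at that start was not examined, so part of a window may be transcribed. Col4a1 lies head to head with Col4a2, another chain of type IV, and the 76 bases between the starts of the pair are given, read in the direction of Col4a1. The sequences are from RefSeq, build GRCr8, 5′ to 3′ on the gene's strand: chr20:4817649-4817898, minus strand, for Col11a2, chr4:33518307-33518556, plus strand, for Col1a2 and chr16:84885521-84885596, plus strand, for Col4a1. Capitals mark matches, on either strand, to the motif CCAAT, the motif GGGCGG or the motif TATAAA, the last being a form of the TATA box; a match on the opposite strand shows as the reverse complement.
Col11a2: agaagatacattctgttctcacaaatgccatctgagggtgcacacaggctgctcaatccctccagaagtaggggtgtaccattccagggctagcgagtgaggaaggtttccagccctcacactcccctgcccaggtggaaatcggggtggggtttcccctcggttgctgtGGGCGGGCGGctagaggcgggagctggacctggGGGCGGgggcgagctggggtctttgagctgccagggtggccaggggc
Col1a2: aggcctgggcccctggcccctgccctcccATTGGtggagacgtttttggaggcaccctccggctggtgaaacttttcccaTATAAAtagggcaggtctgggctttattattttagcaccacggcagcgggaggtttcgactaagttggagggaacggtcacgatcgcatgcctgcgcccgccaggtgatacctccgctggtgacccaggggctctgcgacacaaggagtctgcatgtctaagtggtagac
Col4a1: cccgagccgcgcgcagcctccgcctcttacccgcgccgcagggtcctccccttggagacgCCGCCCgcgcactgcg

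The window of Col11a2 held 3 matches to GGGCGG, of which the first pair overlapped, and that of Col1a2 held 1 match to CCAAT and 1 to TATAAA. The TATAAA of Col1a2 lay at −170 to −165 from the annotated start. Upstream windows of 250 bases were found for 13 members, and Col14a1, Col1a1, Col2a1, Col3a1 and Col6a2 had none. GGGCGG was present in 8 of the 13, CCAAT in 3 and TATAAA in 2. Among all 33469 windows of the same length, 30.5% held GGGCGG, 34% CCAAT and 12.9% TATAAA. These windows are not limited to the genes tested here, so the shares are not those of a matched set. These matches describe the letters of the windows only.

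On each array 42877 non-control spots were read, of which between 94.8% and 97.7% passed the scanner's test against background; 0 were saturated. With 5 arrays a strain, precision is limited by that number. Values are log2 signals relative to the array's own 75th percentile, so that 0 is the level of that percentile and a probe's values can be compared between arrays but not with another probe's. Array SHR 3-3 stood apart, with the lowest 75th percentile of the processed intensity (333, against 431 to 648 in the others) and the lowest mean correlation with its own strain (0.975). Measured against the average of its strain's remaining arrays, it had 2.86% of genes lower by 2-fold or more, and each remaining SHR array had 0.211% to 0.306%. Results are therefore given with and without it. By the scan times in the file headers the arrays were read in 3 scan passes, of which pass 1 held 4 SHR arrays, pass 2 SHR 2-1 with WKY 1-5, 4-1 and 4-2, and pass 3 WKY 1-2 and 1-3. Secretory and duct genes that mark the gland were measured. The water channel gene Aqp5 read 4.46 ± 0.23 in SHR and 4.08 ± 0.40 in WKY (SD, n = 5 each). The kallikrein gene Klk1b3 read 7.43 ± 0.66 in SHR and 7.45 ± 0.12 in WKY. In Klk1b3 SHR 3-3 read 6.34, and the other SHR arrays read 7.53 to 8.12. In Aqp5 SHR 3-3 read 4.81, above the 4.17 to 4.54 of the other SHR arrays.

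The comparison asked which collagen mRNAs the glands of SHR hold at another level than those of WKY. Col11a2, a chain of the fibrils of cartilage, was 1.93-fold higher in SHR (log2 difference 0.95 ± 0.12 SE, n = 5 per strain), and Col1a1, the main chain of type I collagen, was 1.73-fold lower (−0.79 ± 0.20). The other 16 members did not pass. Each of these calls rested on 1 of 2 probes of its gene. At a limma adjusted p below 0.05, 1 of 18 members was higher in SHR, against 1.51% of all genes tested, and 1 was lower, against 2.85%. In all 4.36% of genes passed in either direction. The strains did not overlap in 1 member, Col11a2, against 7.25% of all genes. Of the 18 differences 14 were below 0, with a median of −0.19, whereas over all genes tested 7860 of 14711 were below 0 with a median of −0.016. Among all genes that passed, 65.4% were lower in SHR, and this share was 55.6% under normexp together with quantile normalisation, 54.5% under quantile normalisation alone, 53.5% where they were scaled by their medians and 50.5% in the authors' values. In whole tissue, fewer cells of a type and less RNA per cell cannot be told apart.

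**Figure D1:**
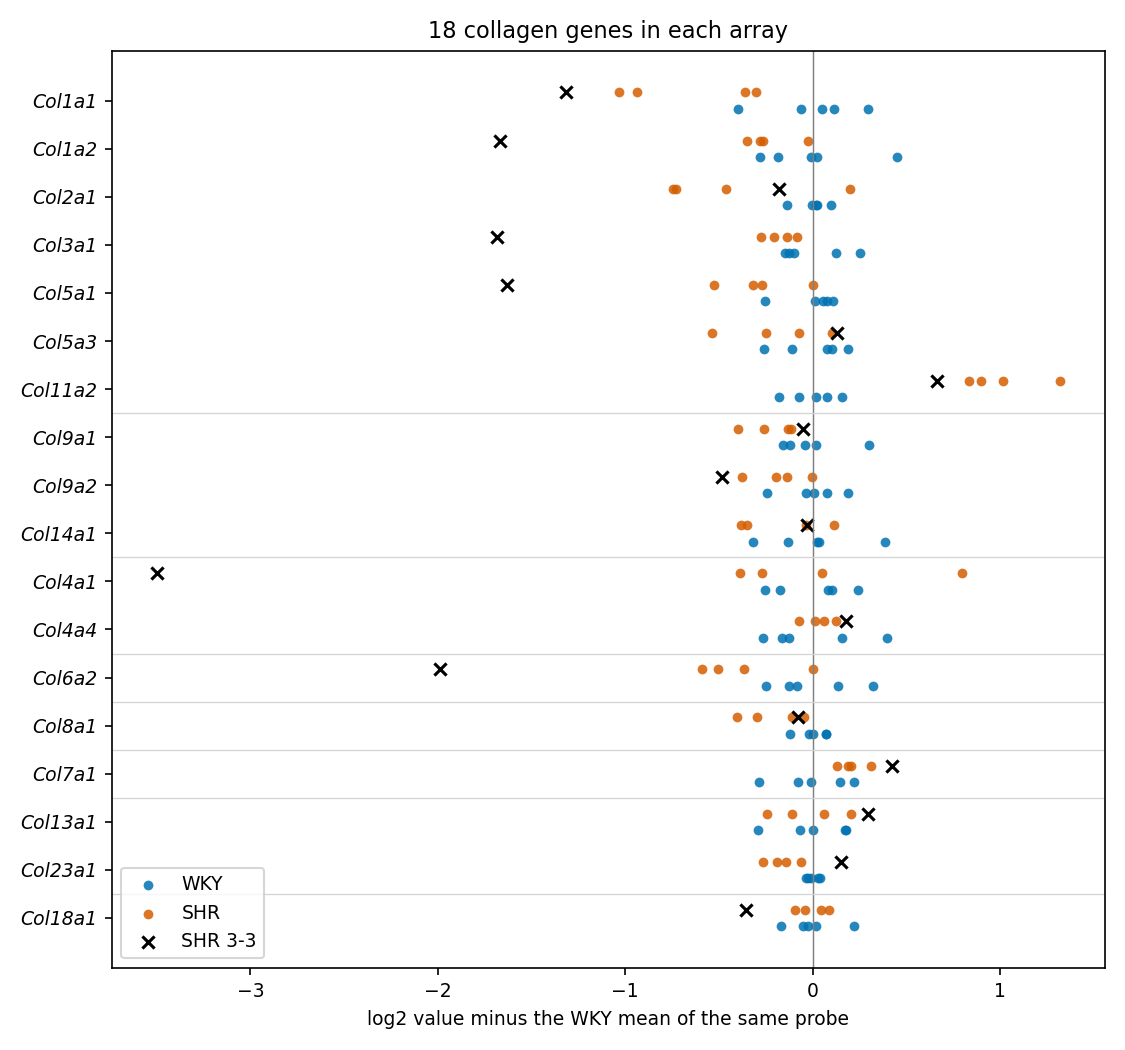
Each point is 1 array, and the horizontal axis gives the log2 value of a member's brightest probe minus the mean of the 5 WKY arrays for that probe. Rows are the 18 collagen genes, with lines between structural classes; blue points are WKY, orange points SHR and the black cross array SHR 3-3. The orange points of Col11a2 all lie to the right of the blue ones, and the cross lies far to the left in Col1a2, Col3a1, Col5a1, Col4a1 and Col6a2.

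Type I collagen, the most abundant collagen of connective tissue, is built from the products of Col1a1 and Col1a2. Col1a1 read 1.03 in SHR 2-1, 1.09 in SHR 2-3, 0.46 in SHR 3-1, 0.074 in SHR 3-3 and 0.36 in SHR 3-4. In WKY it read 1.33 in array 1-2, 1.44 in 1-3, 1.69 in 1-5, 1.51 in 4-1 and 0.99 in 4-2. The SHR arrays whose title number begins with 3 were the lowest of the 10, and the strains overlapped through WKY 4-2, which lay below SHR 2-1 and 2-3. The adjusted p was 0.0437. The call was lost without SHR 3-1, 3-3 or 3-4 or WKY 1-2, 1-3, 1-5 or 4-1, with an adjusted p between 0.0596 and 0.103. It was also lost with normexp background correction and quantile normalisation changed together (0.0555) or scaling to the median (0.0581). Within the scan pass that held both strains, where the SHR value rests on SHR 2-1 alone, assumed to vary like the WKY arrays, the difference was −0.36 ± 0.27 SE (adjusted p = 0.854).

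Col1a2 read 2.72 in SHR 2-1, 2.74 in SHR 2-3, 2.65 in SHR 3-1, 1.33 in SHR 3-3 and 2.98 in SHR 3-4. The WKY arrays read 2.72, 3.02, 2.99, 3.45 and 2.81, in the order 1-2, 1-3, 1-5, 4-1 and 4-2. Apart from SHR 3-3 the strains overlapped, and the difference of −0.52 ± 0.27 SE (n = 5 per strain, adjusted p = 0.302) became −0.23 ± 0.14 without that array (adjusted p = 0.384). The 95% interval with all arrays ran from −1.10 to 0.06. Col1a1 thus had a difference of −0.66 ± 0.18 without SHR 3-3 (adjusted p = 0.0596), beside −0.23 for its partner chain; whether these chains differed from each other was not tested.

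Col3a1 encodes the chain of type III collagen, which forms the reticular fibres of soft organs. It read 1.59, 1.52, 1.71, 0.11 and 1.66 in SHR 2-1, 2-3, 3-1, 3-3 and 3-4, and between 1.65 and 2.05 in WKY. Without SHR 3-3 its SD within SHR went from 0.68 to 0.082, and its difference from −0.48 ± 0.26 SE (adjusted p = 0.331) to −0.18 ± 0.10 (adjusted p = 0.362).

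Type V collagen sits inside type I fibrils and limits their width. Col5a1 was a dim member, well above background on all 5 WKY arrays and 3 of 5 SHR arrays, the exceptions being SHR 3-3 and 3-4, and read −4.27, −3.997, −4.31, −5.63 and −4.52 in SHR 2-1, 2-3, 3-1, 3-3 and 3-4. In WKY it read −4.25 in array 1-2, −3.92 in 1-3, −3.89 in 1-5, −3.94 in 4-1 and −3.99 in 4-2. The SHR values were thus mostly below those of WKY, with an overlap at WKY 1-2. The difference was −0.55 ± 0.24 SE (n = 5 per strain, adjusted p = 0.231) and −0.28 ± 0.12 without SHR 3-3 (adjusted p = 0.195). It was −0.12 ± 0.076 under normexp together with quantile normalisation (adjusted p = 0.422) and −0.39 ± 0.23 under quantile normalisation alone (adjusted p = 0.336). Col5a3, a further chain of type V, ranged from −1.84 to −1.17 in SHR and from −1.56 to −1.12 in WKY, with a difference of −0.12 ± 0.14.

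The fibrillar class also holds chains of cartilage fibrils, Col11a2 and Col2a1. Col11a2 read −0.82, −0.88, −0.70, −1.05 and −0.39 in SHR 2-1, 2-3, 3-1, 3-3 and 3-4, and −1.70, −1.64, −1.56, −1.78 and −1.89 in WKY 1-2, 1-3, 1-5, 4-1 and 4-2. Its lowest SHR array lay above its highest WKY array. The adjusted p was 0.00068, and without SHR 3-3 the difference was 1.02 ± 0.11 SE (adjusted p = 0.00030). It passed without any 1 of the 10 arrays. Within the scan pass that held both strains, where SHR 2-1 is the one SHR array and is assumed to vary like the WKY arrays, the difference was 0.93 ± 0.18 and did not pass (adjusted p = 0.181). Col2a1, the chain of type II collagen of cartilage, read 0.58, −0.35, −0.36, 0.21 and −0.08 in the 5 SHR arrays in that order and between 0.24 and 0.48 in WKY. SHR 2-1 was the highest of all 10 arrays and the other 4 SHR arrays lay below every WKY array, so that the difference of −0.38 ± 0.16 (adjusted p = 0.206) became −0.53 ± 0.12 without SHR 2-1 (adjusted p = 0.0341). Within the scan pass that held both strains, through SHR 2-1 alone, it was 0.24 (adjusted p = 0.823).

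**Figure D2:**
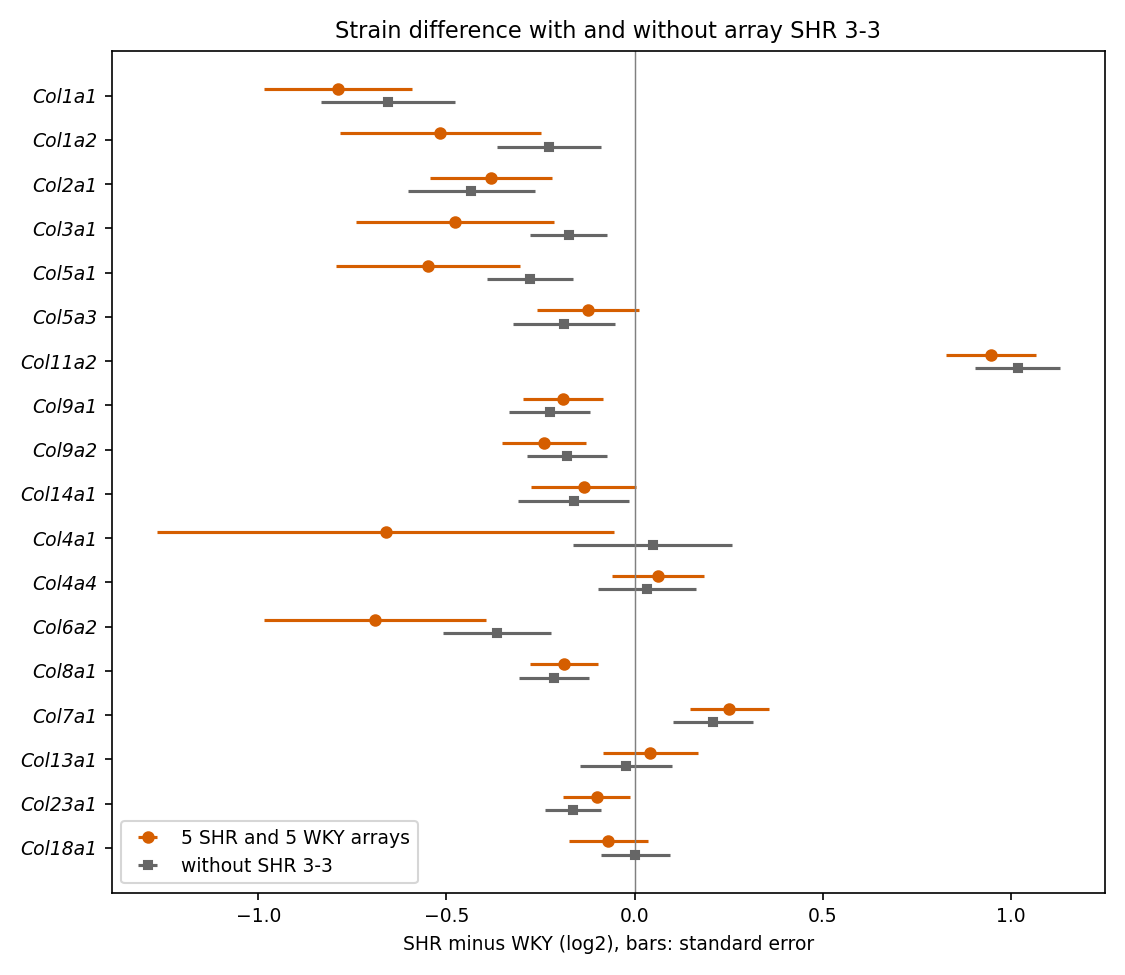
The horizontal axis gives the log2 difference, SHR minus WKY, of each collagen gene; bars are standard errors of the limma fit. Orange circles use 5 SHR and 5 WKY arrays and grey squares leave out SHR 3-3. Col4a1 moves from −0.66 to 0.05 and Col6a2 from −0.69 to −0.36, while Col11a2 stays near 1.

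Among the network-forming and filament-forming collagens, no member passed. Col4a1, a chain of the type IV network of basement membranes, read 2.46, 2.34, 2.78, −0.77 and 3.53 in SHR 2-1, 2-3, 3-1, 3-3 and 3-4, and 2.55, 2.83, 2.48, 2.97 and 2.81 in WKY 1-2, 1-3, 1-5, 4-1 and 4-2. On this probe, the brightest, SHR 3-3 lay 11.7-fold below the average of the 4 remaining SHR arrays, and SHR 3-4 was the highest of all 10. The difference was −0.66 ± 0.61 SE (n = 5 per strain, adjusted p = 0.578), with a 95% interval from −1.98 to 0.66, and 0.05 ± 0.21 without SHR 3-3 (adjusted p = 0.927). Col4a4, a type IV chain known from the filter of the kidney, was well above background on 4 arrays of each strain. In the same order of arrays it read −4.64, −4.52, −4.59, −4.47 and −4.72 in the SHR arrays and −4.91, −4.25, −4.81, −4.78 and −4.49 in the WKY arrays. The WKY values spread around all SHR values, and the difference was 0.06 ± 0.12 (adjusted p = 0.823).

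Col6a2, a chain of the beaded filaments of type VI, read 0.80, 1.30, 0.71, −0.69 and 0.93 in SHR 2-1, 2-3, 3-1, 3-3 and 3-4, and 1.05, 1.17, 1.44, 1.62 and 1.21 in WKY 1-2, 1-3, 1-5, 4-1 and 4-2. SHR 2-1, 3-1, 3-3 and 3-4 lay below all WKY arrays and SHR 2-3 among them. The difference was −0.69 ± 0.30 SE (n = 5 per strain, adjusted p = 0.210) and −0.36 ± 0.14 without SHR 3-3 (adjusted p = 0.171). Col8a1, a short-chain collagen made by vessel walls, read −1.95, −2.20, −2.31, −1.98 and −2.02 in the SHR arrays and −1.83, −2.03, −1.83, −1.93 and −1.90 in the WKY arrays, in the same order. The lowest values were those of SHR 3-1 and 2-3, and the difference was −0.19 ± 0.09 (adjusted p = 0.273).

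The fibril-associated collagens, which lie on the surface of fibrils, had differences below 0 that did not pass in 3 of 3 members. Col9a1 and Col9a2, chains of the type IX collagen that coats cartilage fibrils, had differences of −0.19 ± 0.11 and −0.24 ± 0.11 SE (n = 5 per strain), and Col14a1, whose product binds type I fibrils, had −0.14 ± 0.14. In the order of arrays used above, Col9a1 read −1.68, −1.96, −1.69, −1.61 and −1.82 in the SHR arrays and −1.26, −1.54, −1.60, −1.72 and −1.68 in the WKY arrays. Col9a2 read −1.19, −1.06, −1.42, −1.53 and −1.25 in the SHR arrays and −1.04, −1.08, −0.86, −0.97 and −1.29 in the WKY arrays. Col14a1 read 0.62, 0.15, 0.12, 0.47 and 0.47 in the SHR arrays and 0.89, 0.53, 0.37, 0.53 and 0.18 in the WKY arrays. In all of them the strains overlapped, with WKY 1-2 highest in Col9a1 and Col14a1 and WKY 1-5 highest in Col9a2.

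Among the other classes, Col7a1, the collagen of the fibrils that anchor epithelium to the tissue beneath, read −1.86, −2.04, −1.98, −1.75 and −1.97 in the SHR arrays and −1.95, −2.46, −2.25, −2.03 and −2.18 in the WKY arrays, in the same order. WKY 1-2 and 4-1 lay among the SHR arrays. Its difference of 0.25 ± 0.11 SE (n = 5 per strain, adjusted p = 0.203) was the largest upward one after that of Col11a2. The membrane-spanning collagens Col13a1 and Col23a1 had differences of 0.04 ± 0.13 and −0.10 ± 0.09. Col13a1 read −1.08, −1.25, −1.39, −0.85 and −0.94 in the SHR arrays and −1.14, −1.21, −1.43, −0.97 and −0.97 in the WKY arrays, and Col23a1 read −1.46, −1.53, −1.66, −1.24 and −1.58 in the SHR arrays and −1.35, −1.42, −1.43, −1.37 and −1.40 in the WKY arrays. In Col23a1 SHR 3-3 was the highest of the 10 arrays and the other SHR arrays the lowest. Without SHR 3-3 the strains no longer overlapped in Col23a1 (difference −0.16 ± 0.07, adjusted p = 0.236). Col18a1, whose product releases the fragment endostatin, read −0.77, −0.69, −0.64, −1.09 and −0.82 in the SHR arrays and −0.71, −0.78, −0.51, −0.76 and −0.90 in the WKY arrays, with SHR 3-3 the lowest of all arrays and a difference of −0.07 ± 0.10.

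The array SHR 3-3 divided the members. In 5 of 18 it was lower than the average of the 4 remaining SHR arrays by 2-fold or more, as were 2.86% of all genes: 11.7-fold in Col4a1, 3.08-fold in Col6a2, 2.85-fold in Col3a1 and 2.71-fold in Col1a2. The remaining one is Col5a1, which was not well above background in SHR 3-3, so no fold is given for it. The 11.7-fold of Col4a1 holds for its brightest probe only. On its second probe SHR 3-3 minus that average was −0.13 (log2). In Col1a1 it was 1.58-fold below. It was the lowest of the 10 arrays in 8 members, the others besides these 6 being Col9a2 and Col18a1, with no share over all genes computed. In 9 members it lay above that average instead, by up to 0.32 on the log2 scale, and these include Col2a1, Col9a1, Col5a3, Col13a1 and Col23a1. None of the other 9 arrays lay 2-fold below its strain's others in any member, and SHR 3-4 lay 2-fold above in 1. Without SHR 3-3, 1 member (Col11a2) passed, against 4.92% of all genes, and the median difference was −0.18. The array's low 75th percentile was named above, and its part in this pattern was not tested.

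The arrays' collagen medians, taken after each member was centred on its mean over the 10 arrays, lay between −0.15 (SHR 3-1) and 0.02 (SHR 2-1) in SHR and between 0.08 and 0.13 in WKY. The median of SHR 3-3 was 0.01, since its low and high members lie on either side of it. The same median over all genes tested lay between −0.11 and 0.09 in SHR and between −0.03 and 0.04 in WKY. With SHR 3-3 included, the SD within SHR was larger than that within WKY in 14 of 18 members, and the share over all genes was not computed. Without SHR 3-3 it was smaller in Col1a2 (0.14 in SHR, 0.28 in WKY) and Col3a1 (0.082 and 0.18). The same held for Col18a1 (0.082 and 0.14) and Col9a2 (0.15 and 0.16), while the rest of the 14 kept the larger SD in SHR. Over all genes the arrays' mean correlation with their own strain, SHR 3-3 included, was 0.975 to 0.987 in SHR and 0.990 to 0.992 in WKY.

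Of the 6 genes with more than 1 probe, Col1a1 and Col11a2 had probes that differed in call, Col4a1 and Col9a1 in direction and Col23a1 in whether the strains overlapped, and those of Col14a1 differed in none of these. The second probe of Col1a1 had a log2 difference of −0.19 ± 0.11 SE (n = 5 per strain, adjusted p = 0.360 over all probes), with SHR values from −0.90 to −0.36 and WKY values from −0.60 to −0.32. That of Col11a2 read between −2.22 and −1.87 in SHR and between −2.18 and −1.98 in WKY, a difference of 0.05 ± 0.09 (adjusted p = 0.811), with a 95% interval from −0.14 to 0.24 that does not reach the 0.95 of the first.

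The second probe of Col4a1 went the other way from the first. It read 2.44, 2.89, 2.28, 2.37 and 2.41 in SHR 2-1, 2-3, 3-1, 3-3 and 3-4, and 1.97, 2.23, 2.18, 2.06 and 1.93 in WKY 1-2, 1-3, 1-5, 4-1 and 4-2. Every SHR array lay above every WKY array, and SHR 3-3 was among the rest of its strain. The difference was 0.40 ± 0.12 SE (n = 5 per strain), which did not pass (adjusted p = 0.0838). Both probes carry the same accession, and SHR 3-3 minus the average of the other SHR arrays was −3.55 in the first and −0.13 in the second. The position of a probe on its transcript was not used here.

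Of the others, the second probe of Col23a1 ranged from −2.19 to −1.70 in SHR and from −1.67 to −1.50 in WKY without overlap (−0.32 ± 0.11, adjusted p = 0.130). Both probes of Col14a1 were below 0 (−0.14 and −0.22) and did not pass. The dimmer probes of Col9a1 had differences of 0.097 and 0.03, against −0.19 for the first, none past the threshold.

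**Figure D3:**
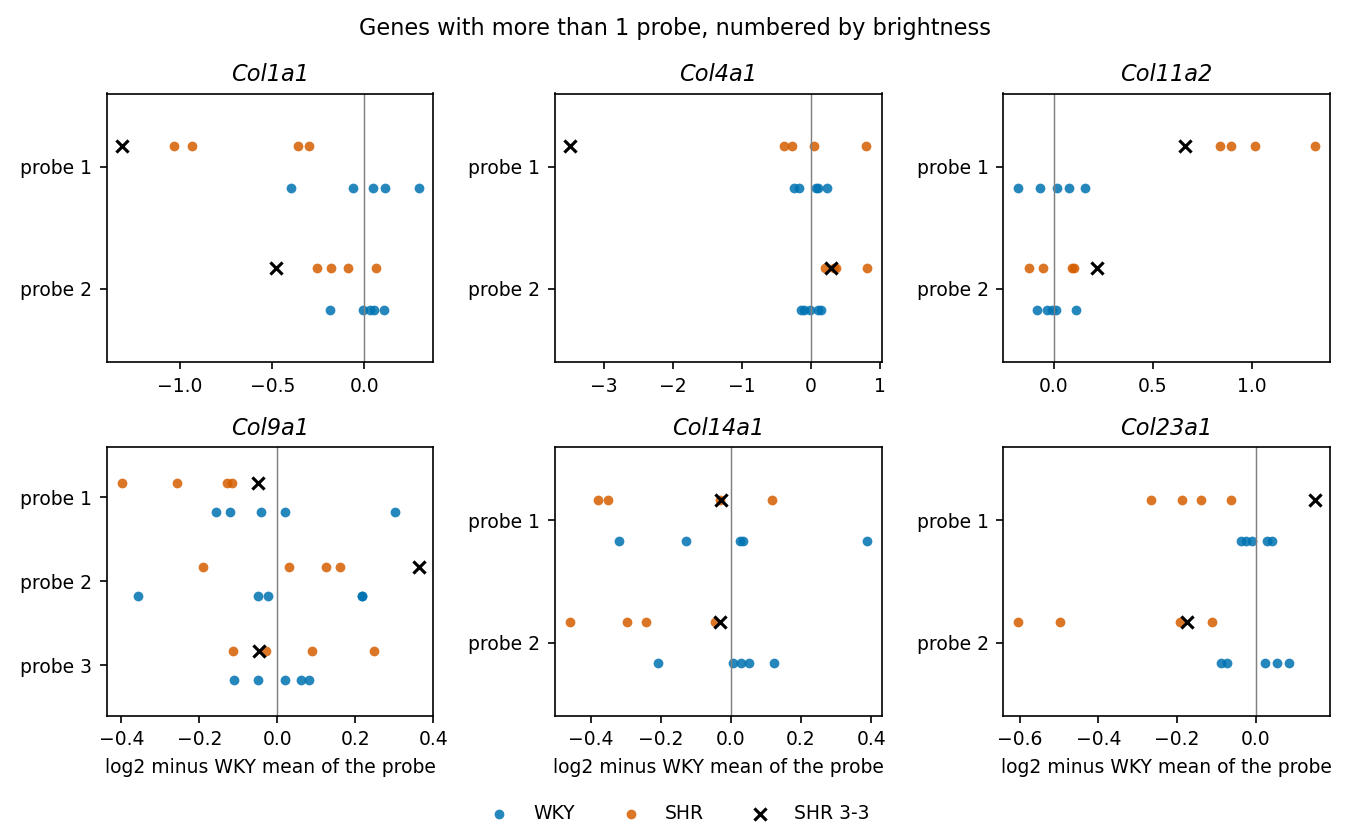
Each panel is a collagen gene with more than 1 probe, numbered from the brightest; the horizontal axis gives the log2 value minus the mean of the 5 WKY arrays for that probe, on a scale of its own in each panel. Points are arrays, blue for WKY and orange for SHR, and the cross is SHR 3-3. In Col11a2 the strains are apart in the first probe alone, and in Col4a1 the cross is far to the left in the first probe and among the SHR points in the second.

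Genes that act on collagens were followed in 4 lists. Among genes of folding and modification in the endoplasmic reticulum, 1 of 18 rose and 0 fell, with a median log2 difference of 0.03. Plod2, the lysyl hydroxylase that prepares collagen for cross-linking, read −0.60, −0.51, −0.62, −0.45 and −0.51 in SHR 2-1, 2-3, 3-1, 3-3 and 3-4 and between −1.10 and −0.79 in WKY, without overlap. It rose by 0.38 ± 0.08 SE (n = 5 per strain, adjusted p = 0.0232), and by 0.36 without SHR 3-3 (adjusted p = 0.0328). The collagen chaperone gene Serpinh1 had a difference of −0.05 ± 0.11 and P4hb, a subunit of prolyl hydroxylase, one of 0.03 ± 0.13. Both names were added after their values were seen.

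In the other lists no member passed. Procollagen processing and cross-linking genes had a median of −0.07 over 8 members, with Tll2, a protease related to procollagen C-proteinase, at 0.23 and the lysyl oxidase gene Loxl3 at −0.19. Collagen breakdown and uptake genes had a median of −0.03 over 11. The membrane metalloproteinase gene Mmp14 had −0.50 ± 0.19 SE (n = 5 per strain, adjusted p = 0.157) and Ctsk, the collagen-degrading cathepsin K, −0.40 ± 0.23 (adjusted p = 0.358). SHR 3-3 minus the average of the other SHR arrays was −0.80 in Mmp14 and −1.01 in Ctsk. Collagen receptor genes had a median of −0.15 over 7, with Ddr2, a tyrosine kinase that binds fibrillar collagen, at −0.28 ± 0.11 and the integrin gene Itga1 at 0.21 ± 0.11.

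Markers of cell types that make collagen were measured beside them, all well above background on all arrays except the macrophage gene Mrc1 on 1 SHR array. Of 8 fibroblast markers, of which 4 had differences above 0 and 4 below, none passed in limma, with a median difference of −8.0e-05. In SHR 3-3 they had a median of −0.58 relative to the other SHR arrays, with Dcn, the collagen-binding proteoglycan decorin, at −2.16 and Pdgfra, the growth factor receptor that marks fibroblasts, at −1.41. Their summed signal on the log2 scale lay between 3.20 and 3.85 in SHR and between 2.96 and 3.68 in WKY, and SHR 3-3 was the lowest of its strain. This sum adds signals of different probes and mainly follows the brightest marker, Gsn (mean 2.94 in SHR and 2.65 in WKY). It is therefore not a measure of the fibroblast share. Dcn had a strain difference of −0.78 ± 0.42 SE and Lum, the fibril-binding lumican, one of −0.65 ± 0.26 (n = 5 per strain, adjusted p = 0.314 and 0.184), and −0.35 and −0.49 without SHR 3-3. The part of the fibroblast share of the tissue in the collagen values was not tested.

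Pericyte and vascular smooth muscle genes had a median difference of 0.08 over 10 members, with Myh11, a smooth muscle myosin, at 0.33 and the channel gene Kcnj8 at 0.28. Myoepithelial and basal genes had a median of 0.004 over 7, with Myh11, which is on both lists, and Tp63, a transcription factor of basal cells, at 0.28. No member of either list passed. Of 8 endothelial genes, with a median of 0.10, 1 rose: Plvap, a component of vessel fenestrae, rose by 0.60 ± 0.15 SE (n = 5 per strain, limma adjusted p = 0.0443), and its adjusted p was 0.0544 without SHR 3-3.

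Medians were −0.15 over 7 Schwann cell genes, −0.13 over 7 adipocyte genes and 0.01 over 6 skeletal muscle genes, and no member of these passed. The largest differences were −0.45 in Sox10 and −0.31 in S100b among Schwann cell genes, −0.63 in Lpl and −0.44 in Adipoq among adipocyte genes, and 0.49 in Ckm and 0.29 in Actn3 among muscle genes. Of 9 macrophage genes 2 fell, with a list median of −0.47. Cd68 fell by 0.97 ± 0.17 SE and Aif1 fell by 0.81 ± 0.18 (n = 5 per strain, limma adjusted p = 0.00668 and 0.0293), and both passed without SHR 3-3 too. The summed macrophage signal was lowest in SHR 3-3 (3.76) and lay between 4.69 and 5.39 in the other arrays. This sum mainly follows its brightest gene, Lyz2 (mean 4.22 in SHR and 4.27 in WKY), and is not a measure of the macrophage share. The part of macrophages in the collagen values was not tested. Among 9 acinar and duct genes, with a median of 0.20, Smgc, a mucin-like secretory gene, fell by 4.10 ± 0.35 (adjusted p = 2.3e-05). Without SHR 3-3 the keratin gene Krt7 also passed (0.64, adjusted p = 0.0155). SHR 3-3 minus the average of the other SHR arrays was −4.31 in Egf, a duct product. It was 2-fold or more below in 4 genes of this list, but 0.43 in Aqp5 and 0.51 in Bhlha15.

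**Figure D4:**
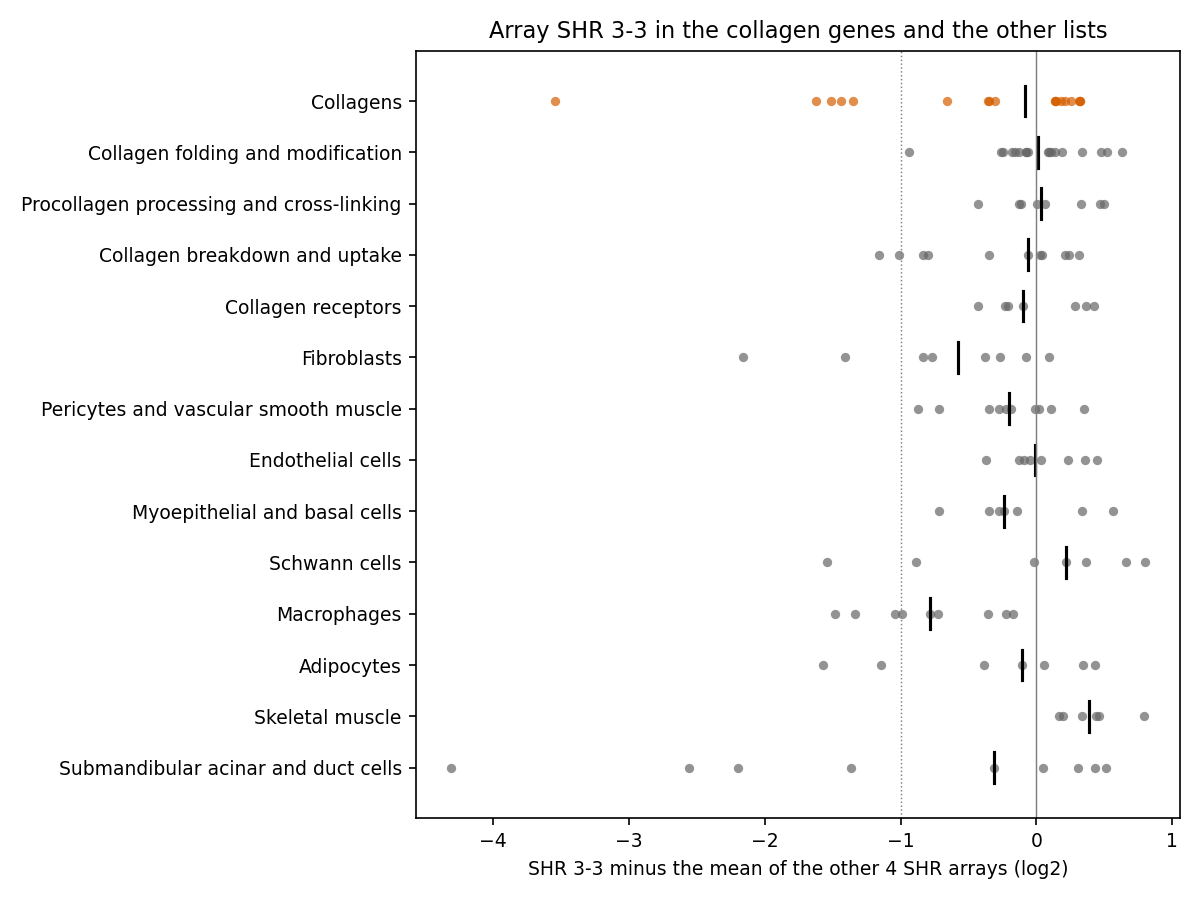
The horizontal axis gives the log2 value of array SHR 3-3 minus the mean of the other 4 SHR arrays, for each gene (points) of the collagen set (orange) and of the other lists (grey); black bars are list medians and the dotted line marks a 2-fold lower value. Of the collagen genes 5 lie to the left of that line (Col5a1, one of them, not well above background in this array). So do 3 macrophage, 2 fibroblast, 2 adipocyte, 2 breakdown and 1 Schwann cell genes. Of the acinar and duct list 4 lie there (Egf, Cftr, Krt7 and Klk1b3), while Aqp5 and Bhlha15 lie above 0. Points use each gene's brightest probe, and the second probe of Col4a1, not shown, had −0.13.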

How the data were processed

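Messenger RNA was read on 1 array per rat. Agilent Feature Extraction 11.0.1.1 turned the scans into a background-subtracted intensity for each spot, per the file headers. The authors also deposited log2 values, with a median of 7.19; no source used here states their normalisation. Each array's log2 intensity was reduced by its 75th percentile, outlier spots were left out and spots of a probe averaged. Of 30367 probes, the 29266 that stood well above background on 5 or more of 10 arrays entered the fit. RefSeq accessions gave 18005 probes 1 symbol (table of assembly GRCr8), 0 probes several and 12362 none. SHR minus WKY was fitted over 14711 genes with limma 3.58.1 in R 4.3.3 (lmFit, eBayes, two-sided, Benjamini-Hochberg over all genes), and checked on simulated data. Intervals are 95% intervals of that fit. No pair of neighbouring collagen genes (7 pairs) had both members among the 18 genes found through RefSeq accessions.

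All members are described. Values in every array are given for members past the threshold and the 3 largest differences in each class. Col1a2, Col2a1 and Col3a1 were added after their values were seen, as were Serpinh1, P4hb, Pdgfra, Gsn, Lyz2, Aqp5, Klk1b3, Egf and Krt7. In other lists up to 3 genes past the threshold are named, or the 2 largest differences. Alternatives were other background corrections and normalisations, the authors' values, filters, probe choices, variance models, the scan pass or title number as a block, and leaving out each array; the next brightest probe, the second title number as a block and the other lists without SHR 3-3 were added after seeing the data. The members and lists were chosen with earlier results of these data known. The collagen lists held 18 tested genes in 8 structural classes; myoepithelial and smooth muscle lists share 3 genes.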

Additional observations from a re-analysis of the deposited data

Results flagged for a closer look

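In 3 members the value of SHR 3-3 on the brightest probe lay far from the other SHR arrays: 1.33 in Col1a2, 0.11 in Col3a1 and −0.77 in Col4a1. The gap to the nearest SHR array was 0.80, 0.88 and 0.72 of the strain's whole range, above the limit of 0.71 for 5 arrays. In Col5a1, WKY 1-2 was set apart from the other WKY arrays in the same way (−4.25, a gap of 0.72 of the range). These are 4 of 36 groups of 5 arrays tested, 11.1%, where chance gives about 5% for independent groups. As 3 of the 4 are the same array, the groups are not independent, and the 2 shares do not show an excess. In the second probe of Col4a1, SHR 3-3 (2.37) lay among the other SHR arrays.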

How the results depend on the processing

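Neither Col11a2 nor Col1a1 changed sign under any alternative run; Col13a1 did under 3 alternatives, Col14a1, Col2a1, Col4a1 and Col4a4 under 2 each, and Col18a1, Col5a3 and Col9a1 under 1. In limma, the 1 member higher in SHR became 0 with the scan pass as a block, in the pass with both strains alone or with the next brightest probe (1, 1 and 2 at an unadjusted p below 0.05), and 2 with the pass as a random block. The 1 member lower became 0 with normexp and quantile normalisation together, median scaling, the mean of a gene's probes, the pass as a block, that pass alone or the next brightest probe (3, 2, 5, 0, 1 and 4 unadjusted, against 4 in the chosen fit), and 7 with the random block. Leaving out 1 array gave 0 to 2 lower, the 2 being Col1a1 and Col2a1 without SHR 2-1. The random block had an estimated correlation of −0.19, below 0, and passed 3451 genes in all; the fixed block passed 44. The median difference was −0.12 with normexp and quantile normalisation together and −0.059 with the fixed block or in that pass alone. The strains share no first title number, but both use the second numbers 1 and 3, and the labels do not say what these mark. With the second number as a replicate block, added after seeing the data, 0 members were higher and 0 lower (1 and 2 unadjusted) and 82 genes passed in all; Col11a2 had 0.85 ± 0.15 SE (adjusted p = 0.0542) and Col1a1 −0.81 ± 0.28 (adjusted p = 0.304). Dim signal limits Col5a1 and Col4a4, which a filter on all 10 arrays removed.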

Other observations

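Col11a2 lies in the major histocompatibility region of the rat genome, and the 10 nearest tested genes, 5 on each side, were looked up after its value was seen. Of these 1 passed in limma, against 4.36% of all genes tested. It was the class I gene RT1-A2, which read lower in SHR (log2 difference −1.36 ± 0.27 SE, n = 5 per strain, adjusted p = 0.0146). Each neighbour was read through its brightest probe, and any other probe of these genes was not examined. The adjoining genes were RT1-Ha, with a difference of −0.002 ± 0.15, and Rxrb, a nuclear receptor gene, with 0.29 ± 0.11 (adjusted p = 0.157). The strains did not overlap in Rxrb and RT1-A2, nor in 7.25% of all genes tested. The others were RT1-DMb (0.06), RT1-DMa (−0.10), Brd2 (0.18), RT1-DOa (−0.11), Slc39a7 (0.23), Hsd17b8 (−0.30) and Ring1 (−0.03).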
